A study of Mus musculus with 6 samples.

Results

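The 10 genes described here are immediate early and activator protein 1 (AP-1) factors, found by their symbols among the 31053 genes of the deposited count matrices: Fos, Fosb, Jun, Junb, Jund, Batf, Egr1, Egr2, Egr3 and Nr4a1. They were selected on their measured levels across B cell states and T cells in these same data, so those levels are given as a description with no test. Each symbol matched 1 row. The study sorted spleen cells, labelled GC (germinal center) B cells, from mice 8 days after immunization with sheep red blood cells and sequenced them by 10x Genomics 3' single-cell RNA-seq. There were 3 libraries of Smc3 wt/wt mice and 3 of Smc3 wt/- mice, which had lost 1 copy of a cohesin core subunit. Both genotypes carried Cgamma1-Cre, a recombinase read from the Ighg1 locus, which is active mainly in B cells that have been activated. The study's methods speak of 6 wt/wt and 3 wt/- mice, but how many stand behind each library, and their ages, are not given in the sources used here, and p-values then measure the spread between libraries.

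Immediate early genes are transcribed within minutes of a signal, such as antigen receptor or CD40 engagement, without the need for new protein. Fos family proteins bind DNA only as dimers, mostly with Jun family partners, whereas Jun proteins can also pair with each other. Batf, a small AP-1 protein, pairs with Jun proteins and joins Irf4 or Irf8 on composite sites, and it is required for class switching in B cells and for T follicular helper cells. Egr1, Egr2 and Egr3 are zinc finger factors and Nr4a1 (Nur77) is an orphan nuclear receptor, and both families are widely used as readouts of antigen receptor signalling.

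The files held 22939 barcodes and 156055938 UMIs (unique molecular identifiers, each counted as 1 captured RNA molecule), between 5223325 and 35354257 UMIs per library. After filtering and removal of predicted doublets, 20847 cells were kept, and clusters were named from marker genes as X-like classes. CB-like (centroblast markers), S-phase GC B-like, CC-like (centrocyte markers), recycling-like (Myc and nucleolar genes), naive or memory B-like, plasma-lineage and T cell-like classes held 5601, 3702, 1128, 1528, 1650, 2071 and 541 cells. Rankings of classes are among these 7. A myeloid-like class of 646 cells, 562 of them in Smc3 wt/- replicate 2, is given apart. A further cluster of 3677 cells, whose genes of largest fold were haemoglobin genes, stayed unnamed, although its GC identity markers summed to a median of 2211 CPM, against 2019 CPM in CC-like cells. Its centrocyte markers summed to a median of 4988 CPM, between the 2190 CPM of CB-like and the 7474 CPM of CC-like cells, and its centroblast markers to 198 CPM against 4887 CPM in CB-like cells. The CC-like class is thus 1 cluster of 1128 cells led by Nfkbid, Il4i1, Bcl2a1b and Cd83, and does not hold all GC B cells with centrocyte markers. Libraries shared at most 0.946% of the barcodes of the smaller library. Smc3 wt/- replicate 2 stood apart: 49.0% of its cells were plasma-lineage, against 1.37 to 3.36% in the other 5 libraries, and its CC-like cells had a summed level of the 7 GC identity markers of 317 CPM (UMIs of a gene per 1000000 UMIs of the class in that library), against 1815 to 2598 in the other libraries. The differences between CC-like and CB-like cells are also given without it. Where values are given for each library, they stand in the order of replicates 1, 2 and 3. In CB-like cells Smc3 itself was measured at 157, 117 and 185 CPM in Smc3 wt/- and 166, 171 and 154 CPM in Smc3 wt/wt. The deleted part of the allele is exon 4, and 3' tags do not read it, so this level does not check the genotype labels.

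RefSeq promoter windows (build GRCm38.p6) were matched for 8 of the 10 genes, all but Egr1 and Egr3. The 250 bases before each annotated start were searched on both strands for an AP-1 site (TGACTCA), a cyclic AMP response element (TGACGTCA), an EGR site (GCGTGGGCG or GCGGGGGCG) and the CArG box of serum response factor. These were found in 4.46%, 1.55%, 3.06% and 1.47% of all 32851 windows. A CArG box stood in 4 of the 5 Egr2 windows, of which 3 overlap and share 1 box, and an EGR site stood in the windows of Nr4a1 and Fosb. No other match was found in the windows of the 8 genes, which says only that these letters were not in them. Below are the windows of Egr2 and Nr4a1, the pair with the most alike levels across classes and libraries, and of Fosb and Fos, whose levels were lower in CC-like than in CB-like cells. Capitals mark the motif, all sequences run in the direction of the gene, and the windows are chr10:67537620-67537869 (plus strand), chr15:101266596-101266845 (plus strand), chr7:19310046-19310295 (minus strand) and chr12:85473640-85473889 (plus strand).
Egr2: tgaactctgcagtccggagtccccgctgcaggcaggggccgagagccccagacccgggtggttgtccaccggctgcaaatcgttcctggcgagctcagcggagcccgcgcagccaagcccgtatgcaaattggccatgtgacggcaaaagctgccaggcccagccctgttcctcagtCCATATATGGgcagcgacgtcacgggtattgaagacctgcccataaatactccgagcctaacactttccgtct
Nr4a1: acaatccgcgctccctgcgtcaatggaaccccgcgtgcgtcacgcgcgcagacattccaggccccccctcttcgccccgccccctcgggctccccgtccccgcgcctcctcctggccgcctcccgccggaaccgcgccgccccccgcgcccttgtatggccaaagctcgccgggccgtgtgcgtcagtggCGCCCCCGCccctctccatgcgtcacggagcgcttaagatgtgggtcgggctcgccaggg
Fosb: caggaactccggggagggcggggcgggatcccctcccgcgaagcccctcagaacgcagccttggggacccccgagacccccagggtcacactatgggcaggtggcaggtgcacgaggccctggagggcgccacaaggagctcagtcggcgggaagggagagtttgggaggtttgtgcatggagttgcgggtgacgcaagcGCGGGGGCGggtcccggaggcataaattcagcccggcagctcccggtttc
Fos: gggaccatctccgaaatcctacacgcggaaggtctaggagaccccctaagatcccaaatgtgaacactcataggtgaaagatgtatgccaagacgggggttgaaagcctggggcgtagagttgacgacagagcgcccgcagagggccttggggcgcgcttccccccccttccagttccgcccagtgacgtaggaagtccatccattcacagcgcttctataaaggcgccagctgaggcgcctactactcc

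In GRCm38 coordinates, Fos lies at chr12:85473890-85477273 and Batf on the same chromosome at chr12:85686669-85709087, both on the plus strand. Junb (chr8:84974484-84978718, minus strand) and Jund (chr8:70698949-70700616, plus strand) share chromosome 8. Jun lies at chr4:95049034-95052222 and Fosb at chr7:19302696-19310051, both on the minus strand. Egr1 (chr18:34859823-34864984), Egr2 (chr10:67535475-67542188), Egr3 (chr14:70077203-70082614) and Nr4a1 (chr15:101254269-101274795) are on the plus strand.

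Levels were compared between CC-like and CB-like cells of the same library. Batf, Junb, Egr1, Egr2, Egr3 and Nr4a1 were higher in CC-like cells in all 6 libraries. Fos and Fosb were lower in all 6, and Jun and Jund were mixed. Over the 10 genes the median difference, on the log2(CPM + 10) scale, averaged 0.87 ± 0.39 (SD, n = 6 libraries), and over all genes with a mean of at least 5 CPM it was -0.018. Of all 8234 such genes 17.9% were higher and 20.5% lower in all 6 libraries. The members were chosen with these levels known, and Egr2, Egr3 and Nr4a1 passed the level of 5 CPM through CC-like cells alone. Nothing is therefore read from their median or from their counts of 6 higher and 2 lower.

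**Figure D1:**
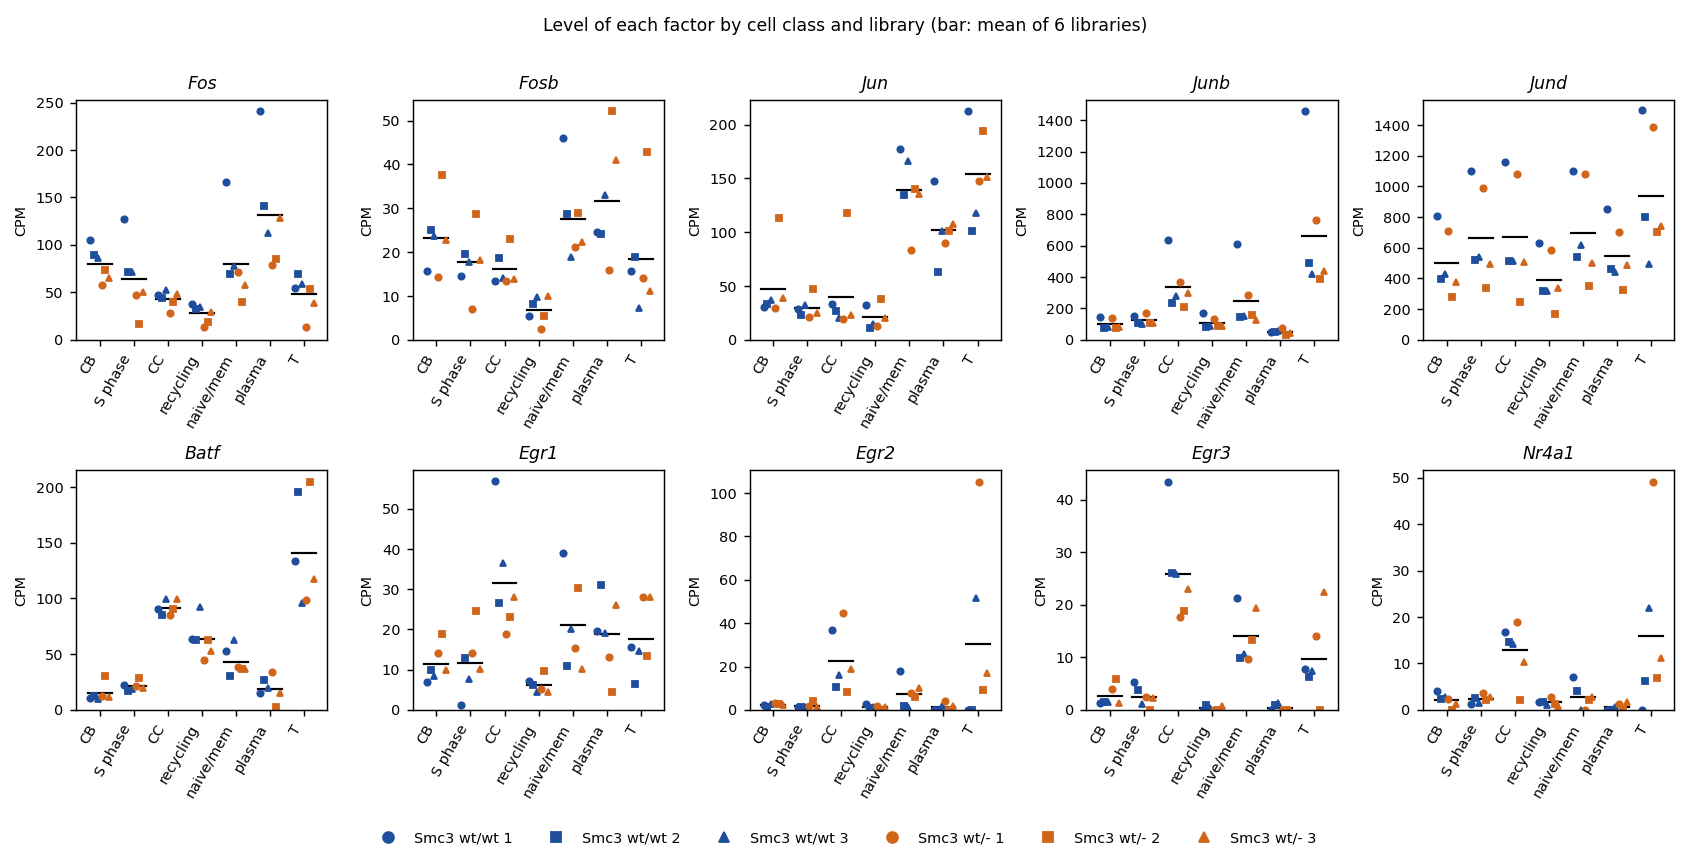
Level of each factor in CPM (y axis, linear, from 0) in 7 cell classes (x axis). Each point is the summed UMIs of 1 library, blue for Smc3 wt/wt and orange for Smc3 wt/-, with circles, squares and triangles for replicates 1, 2 and 3, and the black bar is the mean of 6 libraries. For Junb, Egr2 and Egr3 every CC-like point lies above every point of the other GC classes. Batf overlaps recycling-like cells, Nr4a1 overlaps through Smc3 wt/- replicate 2, and Fos, Fosb and Jun do not stand up in the CC-like column.

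Fos, the founding member of the AP-1 family, stood in CB-like cells at 106, 89.2 and 86.7 CPM in the wt/wt libraries and at 57.4, 73.8 and 65.2 CPM in the wt/- libraries. In CC-like cells the wt/wt libraries held 46.8, 44.1 and 52.3 CPM of it and the wt/- libraries 28.4, 39.9 and 48.2 CPM. Every CC-like value lay below every CB-like value. The difference was -0.74 ± 0.23 on the log2(CPM + 10) scale (SD, n = 6), and -0.74 without Smc3 wt/- replicate 2. Recycling-like cells had the lowest mean of the 7 classes, 27.9 ± 9.65 CPM, and plasma-lineage cells the highest, 131 ± 58.8 CPM, with each pair of neighbours in the order overlapping. Myeloid-like cells, outside these 7, stood at 228 ± 206 CPM. The PB-like name rests on S-phase markers, which in Smc3 wt/- replicate 2, the source of most of its cells, summed to 547 CPM against 1641 to 3377 CPM in the other libraries. Fos was at 132 ± 66.2 CPM in PB-like (plasmablast) and 142 ± 41.6 CPM in PC-like (plasma cell) clusters.

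Fosb, the closest relative of Fos, was lower in CC-like than in CB-like cells by a smaller margin, -0.33 ± 0.20 (SD, n = 6), and -0.29 without Smc3 wt/- replicate 2. Its CPM ranges of 13.4 to 23.1 in CC-like and 14.4 to 37.6 in CB-like cells overlapped. In recycling-like cells it ranged from 2.44 to 10.1 CPM, below every CC-like value. Of the 7 classes, plasma-lineage cells again had the highest mean, 31.8 ± 13.1 CPM, and myeloid-like cells, outside them, stood at 49.2 ± 27.8 CPM.

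Jun, the archetypal partner of Fos, was highest outside the GC classes. It measured 154 ± 42.8 CPM in T cell-like, 139 ± 32.7 CPM in naive or memory B-like and 102 ± 27.5 CPM in plasma-lineage cells, 3 neighbours that overlapped. Myeloid-like cells, outside the 7 classes, stood at 335 ± 178 CPM. In the 4 GC classes Smc3 wt/- replicate 2 was the highest library each time and the other 5 lay between 11.2 and 38.6 CPM. It stood at 113 CPM in CB-like and 118 CPM in CC-like cells. Naive or memory B-like cells exceeded CB-like cells in all 6 libraries, by 1.49 ± 0.68 on the log2(CPM + 10) scale, and by 1.73 without that library. Of all 8405 genes compared, 17.9% were higher in naive or memory B-like cells in all 6 libraries.

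Junb, a Jun family member that pairs with Batf, was higher in CC-like than in CB-like cells of every library. In CC-like cells the wt/wt libraries held 639, 234 and 282 CPM of it and the wt/- libraries 369, 212 and 299 CPM. CB-like cells ranged from 73.8 to 143 CPM and did not overlap them. The difference was 1.63 ± 0.27 (SD, n = 6), and 1.67 without Smc3 wt/- replicate 2. T cell-like cells stood higher still, at 387 to 1456 CPM, above the CC-like cells of the same library in 6 of 6 libraries. Plasma-lineage cells had the lowest mean, 51.7 ± 14.3 CPM. Immunoglobulin RNA takes a large share of the UMIs of these cells, and the median of all genes was -0.58 on the log2(CPM + 10) scale in plasma-lineage minus CB-like cells. Junb differed there by -0.81, and by -0.19 with immunoglobulin genes left out of the total.

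Jund, which is expressed in most cells without stimulation, varied both between classes and between libraries. Its class means ran from 393 CPM in recycling-like to 937 CPM in T cell-like cells. In CC-like cells it measured 1157 and 1084 CPM in replicate 1 of Smc3 wt/wt and of Smc3 wt/-, and 248 to 515 CPM in the other 4 libraries. Both replicate 1 libraries lay above the other 4 in 7 of 7 classes for Jund and in 6 of 7 for Junb, the exception being plasma-lineage cells. Many genes did the same: 16.4% in T cell-like, 20.8% in plasma-lineage, 23.1% in CC-like, 31.2% in CB-like, 28.5% in naive or memory B-like, 30.8% in recycling-like and 31.3% in S-phase GC B-like cells. The replicate 1 libraries had median depths of 3329 and 4179 UMIs per cell, against 4768 to 6220 in the others. The part of depth in this difference was not tested. CC-like minus CB-like, Jund differed by 0.33 ± 0.27 and was higher in 5 of 6 libraries, Smc3 wt/- replicate 2 being the exception, and by 0.43 without it.

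**Figure D2:**
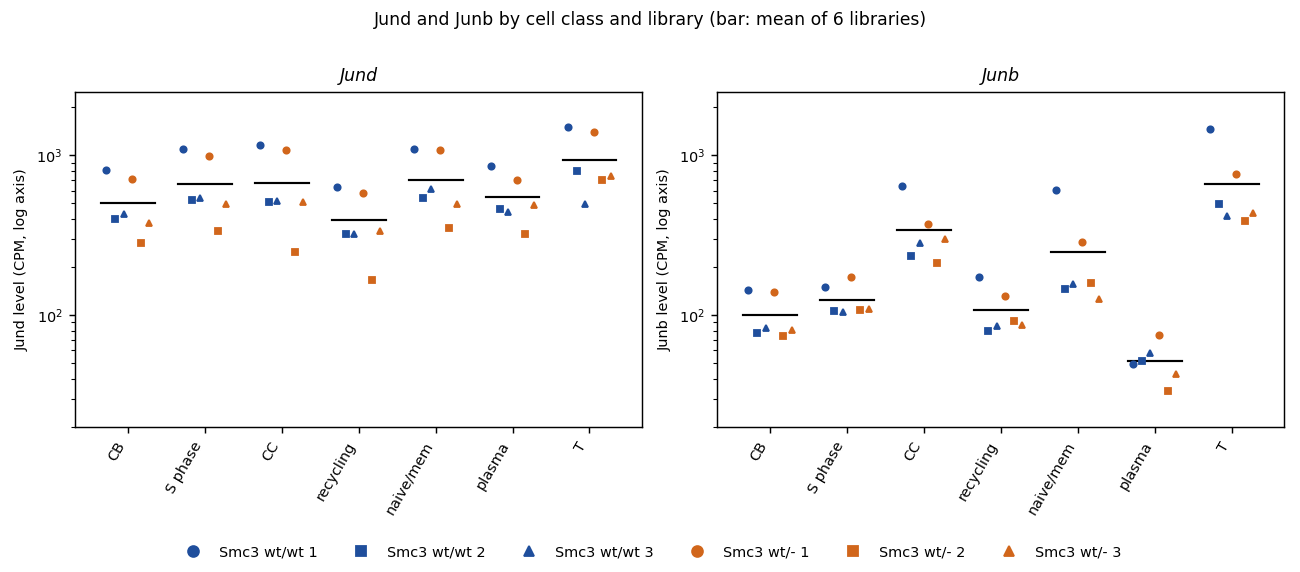
Jund (left) and Junb (right) in CPM on a log axis in 7 cell classes, 1 point per library, with the mean of 6 libraries as a bar. Circles are the replicate 1 libraries of both genotypes, and for Jund they lie above the other 4 points in every class.

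Batf had the largest difference between CC-like and CB-like cells on the log2(CPM + 10) scale, which shrinks the differences of the lower Egr2, Egr3 and Nr4a1 more. CC-like cells of the wt/wt libraries held 90.3, 84.8 and 99.9 CPM of it and those of the wt/- libraries 85.2, 90.3 and 99.4 CPM, all 6 lying close together. CB-like cells of the wt/wt libraries held 10.97, 12.8 and 10.1 CPM and those of the wt/- libraries 12.5, 30.4 and 11.9 CPM, the high one being replicate 2. The difference was 2.08 ± 0.40 (SD, n = 6) and 2.23 without that library. Batf was also higher in recycling-like than in CB-like cells in all 6 libraries, at 44.4 to 92.4 CPM and by 1.58 ± 0.51. Of the 7 members that passed the level in that comparison, it was the 1 that was higher in all 6, where 24.6% of all 8151 genes were. Fos, Fosb and Jund were lower in all 6, by -1.26 ± 0.24, -0.96 ± 0.34 and -0.37 ± 0.19, where 32.4% of all genes were. These values include the 57 recycling-like cells of Smc3 wt/- replicate 2. Their GC identity markers summed to 338 CPM against 1197 to 1806 in the other libraries, and their myeloid markers to 1863 CPM against 134 to 170. Batf had its highest mean in T cell-like cells, 141 ± 48.1 CPM, a range of 95.6 to 205 CPM that overlapped CC-like cells. T cell-like cells with a Cd4 UMI and no Cd8a or Cd8b1 UMI (91 cells) held 94.6 to 432 CPM of Batf across libraries, and those with a Cd8a or Cd8b1 UMI (107 cells) held 0 to 163 CPM. In Smc3 wt/- replicate 2, the library with most T cell-like cells (151), both held 163 CPM, and few cells stand behind each value. In PC-like cells of Smc3 wt/- replicate 2, the library with most of them, Batf was at 2.36 CPM from 52 UMIs.

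Egr1 had its highest mean in CC-like cells, with 56.8, 26.6 and 36.5 CPM in the wt/wt libraries and 18.9, 23.1 and 28.1 CPM in the wt/- libraries. CB-like cells held 6.86 to 18.8 CPM. The lowest CC-like value, 18.9 CPM, lay just above the highest CB-like value, so the ranges barely separated, and the difference was 0.93 ± 0.67 (SD, n = 6), and 1.08 without Smc3 wt/- replicate 2. Recycling-like cells had the lowest mean, 6.16 ± 1.97 CPM. Within the plasma lineage of Smc3 wt/- replicate 2, Egr1 was at 12.5 CPM in PB-like cells (37 UMIs) and 3.22 CPM in PC-like cells (71 UMIs). The other 5 libraries had 0 to 3 UMIs of it in PC-like cells, too few to compare.

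Egr2 and Egr3, which are induced with Egr1 and have been linked to restraint of lymphocyte activation, were close to absent from the dividing GC classes. In CC-like cells Egr2 was at 36.8, 10.8 and 15.9 CPM in the wt/wt libraries and at 44.7, 8.40 and 19.0 CPM in the wt/- libraries, from 4 to 33 UMIs per library. CB-like cells ranged from 1.38 to 2.97 CPM. The difference of 1.28 ± 0.62 (SD, n = 6), 1.44 without Smc3 wt/- replicate 2, is on the log2(CPM + 10) scale, which understates the change of low genes. Egr3 was there at 43.5, 26.0 and 25.9 CPM in the wt/wt libraries and at 17.6, 18.9 and 23.0 CPM in the wt/- libraries. CB-like cells held 1.25 to 5.79 CPM of Egr3, a difference of 1.48 ± 0.50, and 1.61 without that library. Egr3 was next highest in naive or memory B-like cells, 14.04 ± 5.10 CPM, below the CC-like cells in 6 of 6 libraries although the ranges overlapped. PC-like cells held 1 UMI of Egr2 and 1 of Egr3, both in Smc3 wt/- replicate 2, where 3 counts equal 0.136 CPM. In the other 5 libraries 3 counts equal 7.40 to 28.5 CPM, so a low level in their PC-like cells was not detectable at this depth.

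Egr2 in T cell-like cells varied widely between libraries. Replicates 1 and 2 of Smc3 wt/wt had no UMI, replicate 3 had 7 (51.5 CPM), and the wt/- libraries had 15, 4 and 3 UMIs (105, 9.01 and 16.8 CPM). T cell-like and CC-like cells overlapped, and T cell-like cells were the higher in 3 of 6 libraries.

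Nr4a1, like Egr2 and Egr3, had few UMIs in B cells. CC-like cells held 16.7, 14.7 and 14.1 CPM in the wt/wt libraries and 18.9, 2.10 and 10.3 CPM in the wt/- libraries, from 1 to 26 UMIs. The single UMI was in Smc3 wt/- replicate 2. CB-like cells ranged from 0 to 4.12 CPM and overlapped CC-like cells only through that library. The difference was 0.87 ± 0.32 (SD, n = 6) and 0.99 without it. T cell-like cells had a mean of 15.9 ± 17.9 CPM, from 0 to 49.2 CPM, and overlapped CC-like cells.

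**Figure D3:**
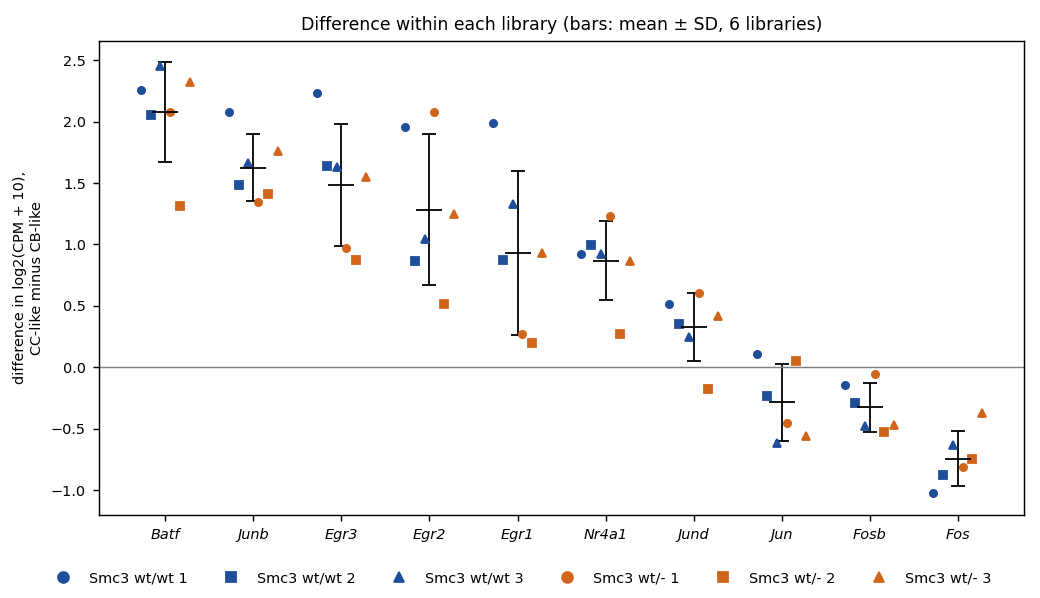
Difference in log2(CPM + 10) between CC-like and CB-like cells of the same library (y axis) for each factor (x axis, ordered by mean). Points are libraries, and bars are the mean ± SD of 6 libraries. Batf, Junb, Egr3, Egr2, Egr1 and Nr4a1 lie above 0 in every library, and Fosb and Fos below it.

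The unnamed cluster, with GC identity markers and a lower sum of centrocyte markers, lay lower than CC-like cells for several members. Batf was there at 22.2 ± 5.79 CPM (SD, n = 6), from 15.6 to 32.3 CPM, below every CC-like library. Egr3, at 6.41 ± 3.52 CPM, was likewise below every one. Egr2 (9.32 ± 7.82 CPM) and Nr4a1 (6.14 ± 6.16 CPM) overlapped CC-like cells. Junb, at 208 ± 88.1 CPM, was lower than in CC-like cells of the same library in 6 of 6. Fos, at 83.0 ± 36.6 CPM, and Jund, at 902 ± 394 CPM, were the higher in the unnamed cluster in 6 of 6 libraries.

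Levels were also compared between CC-like and recycling-like cells, with Smc3 wt/- replicate 2 kept in. All 10 factors were higher in CC-like cells in 6 of 6 libraries, where 18% of all 8141 genes compared were, but the members were selected on such levels and Egr2, Egr3 and Nr4a1 passed the level of 5 CPM through CC-like cells alone, so nothing is read from this count. The mean difference ran from 0.50 for Batf and 0.50 for Jun to 1.52 for Junb and 1.75 for Egr3. Recycling-like cells were deeper, with median depths of 10386 to 17924 UMIs against 3498 to 6391 in CC-like cells, and the part of depth in these differences was not tested.

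Within the CC-like class, cells were split by whether they carried a UMI of Myc, a growth regulator induced in centrocytes that receive help. This split was chosen after the data had been seen. Cells with Myc numbered 300 of 1128 and had a median of 5852 UMIs, against 4982 in the rest. Batf measured 109 to 181 CPM in cells with Myc and 62.1 to 74.0 CPM in cells without, with no overlap, which held for 0.268% of all 8203 genes. Junb was higher with Myc in 6 of 6 libraries (mean 541 against 245 CPM), as was Egr3 (41.5 against 19.5 CPM). With Jund, 4 of the 10 members were higher in all 6 libraries, where 2.69% of all genes were, and 7 in at least 5, where 12.7% were. The members were selected on their class levels, Myc leads this cluster and the split was made after the data were seen, so nothing is read from these counts. Egr1, Egr2 and Nr4a1 were higher in 5 of 6, the exception in each case being Smc3 wt/- replicate 2. Fos was higher with Myc in 3 of 6 libraries (mean 34.99 against 47.6 CPM) and Fosb in 1 of 6 (mean 11.96 against 18.7 CPM). The part of depth in these differences was not tested. Myc stood among the 10 leading genes of the CC-like cluster itself and was on the marker list of the recycling-like class.

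**Figure D4:**
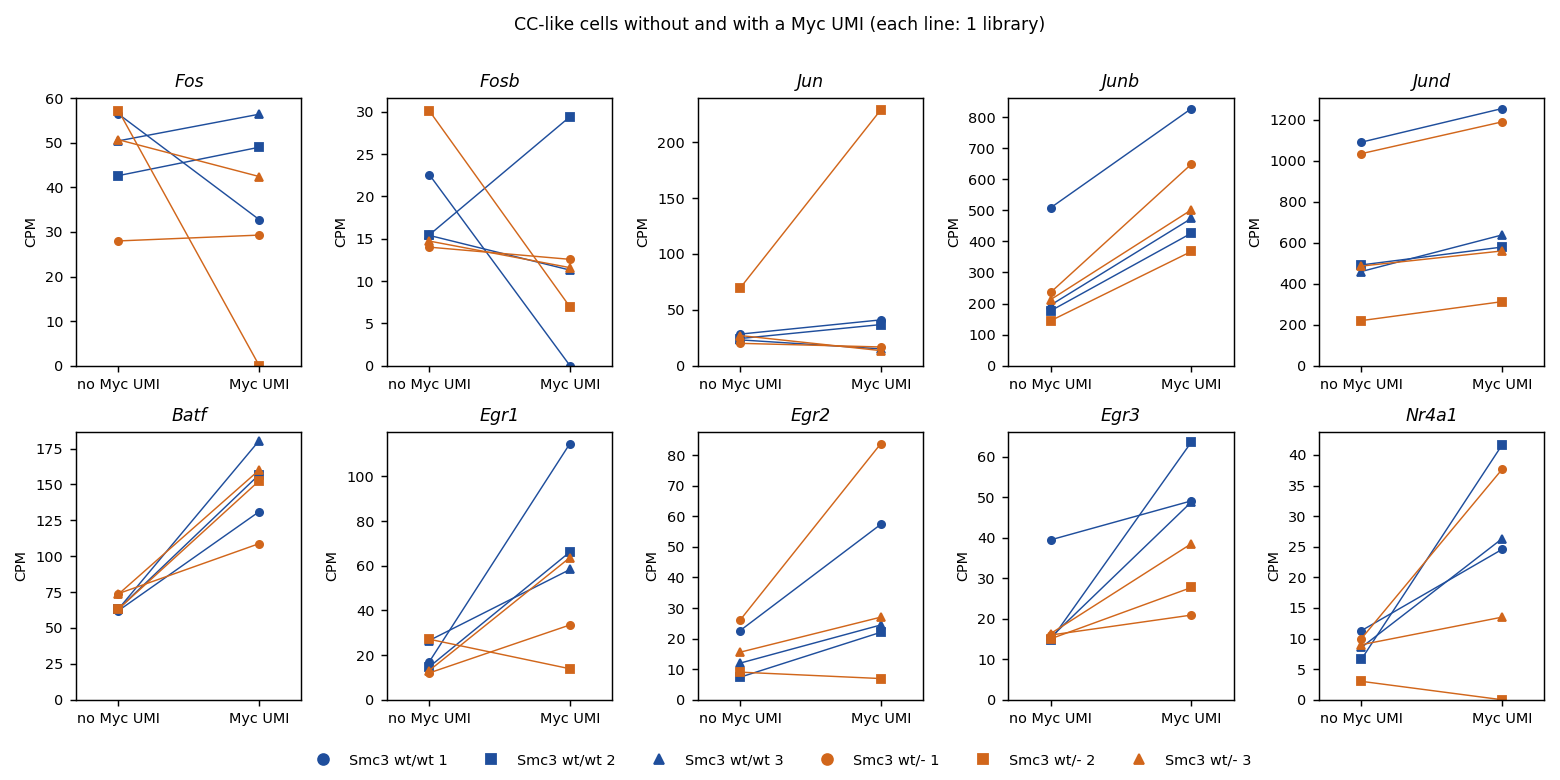
CPM of each factor (y axis, linear, from 0) in CC-like cells without and with a Myc UMI (x axis), 1 line per library. All 6 lines climb for Batf, Junb, Jund and Egr3, and 5 of 6 climb for Egr1, Egr2 and Nr4a1.

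T cell-like cells had the highest means of Batf and Junb, so T cell markers were followed in the CC-like class. The 12 T cell markers summed to 56.7 to 338 CPM in CC-like cells, almost all of it Lck (48.3 to 269 CPM), a kinase that GC B cells also express. Without Lck, the other 11 markers summed to 6.79 to 69.0 CPM in CC-like cells, against 8275 to 12170 CPM in T cell-like cells, and Cd4 had no UMI. In the CC-like cells with no UMI of these 11 markers, Batf was at 84.5 to 109 CPM and Junb at 214 to 627 CPM.

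The share of cells with a UMI was taken after thinning every cell to 2000 UMIs, which left out 166 of 5601 CB-like, 28 of 1128 CC-like and 364 of 541 T cell-like cells. For Batf it was 12.9 to 18.6% of CC-like and 1.7 to 3.1% of CB-like cells across libraries, and for Junb 26.6 to 55.7% and 12.2 to 24.0%. Egr3 was found in 4.4 to 7.7% of CC-like and at most 0.87% of CB-like cells. Fos went the other way, with medians of 9.1% in CC-like and 14.4% in CB-like cells. No class that should lack these genes, judged without these data, was at hand, so the share that free RNA gives was not measured. Unthinned, the Batf share was 22.4 to 30.3% of CC-like and 4.9 to 14.6% of CB-like cells.

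Across the 42 points of class by library, Egr2 and Nr4a1 were the most alike pair of members (Pearson r = 0.91). These correlations are descriptions, since points share libraries and depth. Among 8539 genes, those most like Egr2 were Nr4a1 (0.91), Kdm6b (0.77) and Stat6 (0.76), and those most like Nr4a1 were Egr2, Kdm6b (0.84) and Nab2 (0.79). Egr3 was most like Nfkbid (0.87), Nfkbiz (0.84) and Gramd3 (0.81), and Egr1 most like Hivep3 (0.70), Egr3 (0.65) and Cd52 (0.62). Batf was most like Mapkapk3 (0.90), Prmt3 (0.86) and Sdhaf1 (0.83). Junb was most like Stx6 (0.90), B4galnt1 (0.89) and Arf3 (0.88), and Jund most like Ubb (0.80), Arf6 (0.80) and Gm36839 (0.79). Jun was most like Itm2b (0.92), Itga4 (0.91) and S100a10 (0.89). Fos was most like Hist1h2bc (0.70), Fam214a (0.68) and Smpd1 (0.64), and Fosb most like Cst3 (0.65), Mxd4 (0.60) and Cst6 (0.60).

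Other genes of these pathways were followed in the same CC-like minus CB-like comparison. Of all 8234 genes 17.9% were higher and 20.5% lower in all 6 libraries. The lists were chosen with earlier results known, so nothing is read from their counts. Of 23 other immediate early genes 18 passed the level of 5 CPM, and 8 were higher and 3 lower in all 6 libraries, the lower ones near the share of all genes. Nfkbid, an inhibitor of kappa B family protein, had the largest difference, 2.72 ± 0.79 (SD, n = 6), and Zfp36l1, an mRNA decay factor, the highest level, at 267 CPM in CC-like cells. The 3 lower genes were Klf6 at -0.97 ± 0.28, Dusp1 at -0.38 ± 0.27 and Btg2 at -0.38 ± 0.10. Nab2, a corepressor that EGR proteins induce and that acts on them, was at 59.5 CPM in CC-like and 13.1 CPM in CB-like cells, a difference of 1.49 ± 0.49 that was above 0 in 6 of 6 libraries. Irf4 and Irf8, the partners of Batf, were both higher in all 6, by 1.09 ± 0.36 and 0.58 ± 0.13. Of 11 other AP-1 subunits 2 passed, Mafg and Mafk, small Maf proteins, and both were higher in all 6 libraries, by 0.45 ± 0.30 and 0.49 ± 0.16. None of the 11 upstream regulators that passed was higher or lower in all 6, and their median difference was 0.05. Of the 6 heat shock genes that passed, all chaperones, Hspe1 and Hspa8 were higher in all 6 libraries.

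The question of the design was whether losing 1 Smc3 copy alters expression, and each class was tested across the 3 and 3 libraries. Summed counts were compared by edgeR's quasi-likelihood test with Benjamini-Hochberg adjustment over all genes of the class. No gene passed an adjusted p of 0.05 in any of the 7 classes (0% of genes), while 50 to 229 genes had an unadjusted p under 0.05. DESeq2 called 0 genes in 6 classes and 1, Ifi27, in S-phase GC B-like cells. Of the 55 tests of a member in a class, none was called (adjusted p from 0.839 to 1), 4 had an unadjusted p under 0.05, and in 7 the libraries of the genotypes did not overlap. Overlap was judged on TMM-scaled CPM. The share of all genes without overlap was 7.34% in T cell-like, 10.6% in plasma-lineage, 8.33% in CC-like, 9.84% in CB-like, 6.68% in naive or memory B-like, 8.77% in recycling-like and 8.94% in S-phase GC B-like cells.

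All 4 of the tests with a small unadjusted p were of Fos, and it was the lower in Smc3 wt/- each time. Its log2 fold change, Smc3 wt/- over wt/wt, was -0.96 ± 0.27 (SE) in S-phase GC B-like, -0.78 ± 0.28 in naive or memory B-like, -0.67 ± 0.29 in recycling-like and -0.49 ± 0.17 in CB-like cells. Without Smc3 wt/- replicate 2, in the same order, it was -0.77, -0.62, -0.63 and -0.61. In S-phase GC B-like cells Fos was at 127, 71.1 and 71.6 CPM in the wt/wt libraries and at 47.6, 16.4 and 50.8 CPM in the wt/- libraries. After TMM scaling the libraries did not overlap in these 4 classes. In plain CPM they overlapped in naive or memory B-like cells, where replicate 2 of wt/wt held 69.4 CPM and replicate 1 of wt/- held 71.5 CPM. Without a test, the libraries were ordered the same way in T cell-like and myeloid-like cells, by thin margins, and in the unnamed cluster. The share of all genes so ordered was not taken for myeloid-like cells or the unnamed cluster. In T cell-like cells Fos was at 55.1, 69.5 and 58.8 CPM in the wt/wt libraries and at 14.1, 54.1 and 39.2 CPM in the wt/- libraries, from 2 to 24 UMIs. In myeloid-like cells it was at 180 to 616 CPM in wt/wt and 48.0 to 176 CPM in wt/-, from 1 to 16 UMIs in each library but Smc3 wt/- replicate 2 (291 UMIs). In the unnamed cluster it was at 83.4 to 152 CPM in wt/wt and 54.7 to 64.9 CPM in wt/-. Y-linked RNA stood at 189, 175 and 0 CPM in the wt/wt libraries and at 0, 54.0 and 0.0327 CPM in the wt/- libraries. Xist stood at 0.843, 18.5 and 914 CPM in wt/wt and at 622, 3.56 and 911 CPM in wt/-. Sex as read from this RNA was thus unbalanced between the genotypes, most of all without Smc3 wt/- replicate 2. A sex covariate was among the alternatives, and beyond it the part of sex was not tested. All classes come from the same 6 libraries and are not independent. In edgeR's quasi-likelihood test the unadjusted p was 0.00539 in S-phase GC B-like cells, and the adjusted p was 1. In CC-like cells the fold change was -0.23 (95% interval -0.81 to 0.35) and in plasma-lineage cells 0.0071 (-1.19 to 1.21), and whether these differ from the other classes was not tested. Over the 18 alternatives run in CC-like cells it ranged from -0.61 to 0.0069, and 17 of them were below 0. Without Smc3 wt/- replicate 2 the plasma-lineage value was -0.73.

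**Figure D5:**
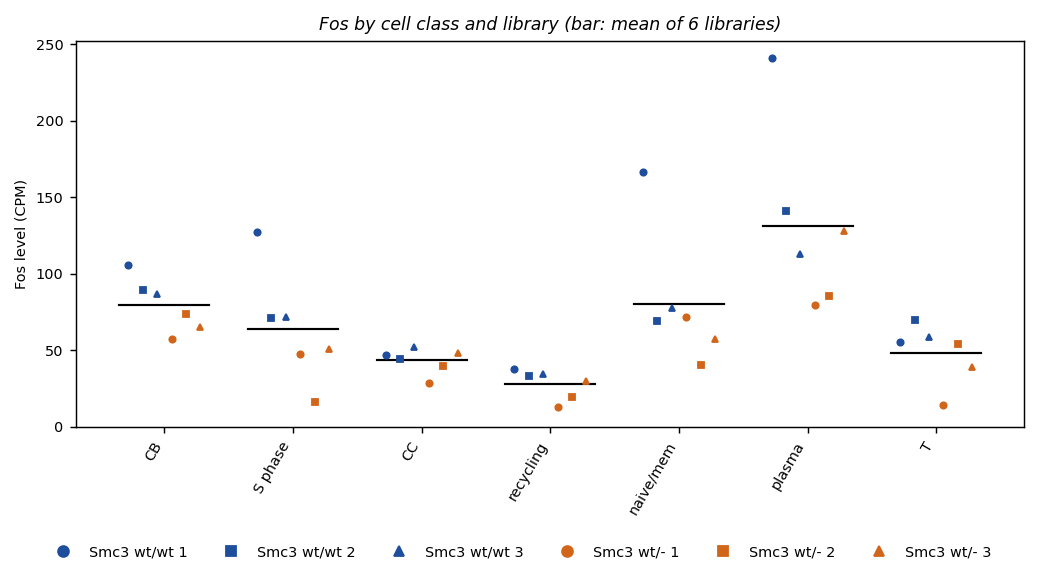
Fos in CPM (y axis, linear, from 0) in 7 cell classes, 1 point per library, blue for Smc3 wt/wt and orange for Smc3 wt/-, with the mean of 6 libraries as a bar. All blue points lie above all orange points in CB-like, S-phase and recycling-like cells, and just so in T cell-like cells, while in naive or memory B-like cells the lowest blue point is just under the highest orange one.

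No other member had an unadjusted p under 0.05 in any class. Jund had fold changes of -0.20 to -0.22 in the 4 GC classes and in naive or memory B-like cells, each with an interval that spans 0. Without Smc3 wt/- replicate 2 they ran from -0.017 in CB-like to 0.11 in CC-like cells. In CC-like cells, where most of them were highest among B cells, 3 of 10 had a fold change above 0 and 7 below, with a median of -0.22 against -0.0015 for all genes, and Egr3 alone did not overlap (31.2 ± 8.44 against 20.7 ± 3.95 CPM after TMM scaling, n = 3 and 3). Its log2 fold change was -0.47 (95% interval -1.11 to 0.17). Batf, at 0.05 (-0.37 to 0.46), had the narrowest interval of the members in this class. Jun, at 0.96 (-0.58 to 2.50), had the widest, its high value being Smc3 wt/- replicate 2. In CB-like cells Egr1 was higher and Nr4a1 lower in Smc3 wt/- without overlap, with log2 fold changes of 0.49 ± 0.26 and -0.90 ± 0.46 (SE). The margins were thin. In plain CPM the nearest wt/wt and wt/- libraries stood at 9.98 and 9.998 CPM for Egr1 and at 2.37 and 2.34 CPM for Nr4a1. Nr4a1 rested on 0 to 31 UMIs per library. The 0 was in Smc3 wt/- replicate 2, where 3 counts equal 4.34 CPM, above every wt/wt value. The other immediate early genes gave no common direction. Fold changes above and below 0 numbered 9 and 11 in CB-like, 10 and 9 in S-phase GC B-like, 10 and 9 in recycling-like, 3 and 15 in CC-like, 3 and 11 in naive or memory B-like, 13 and 1 in plasma-lineage and 3 and 6 in T cell-like cells, and none was called. The plasma-lineage class is made of different clusters in different libraries: Smc3 wt/- replicate 2 held 1433 PC-like and 317 PB-like cells, whereas PB-like cells were the more numerous in each of the other 5 libraries. Of the 7 members tested there 5 had a fold change above 0, and all 7 were below 0 without that library.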

How the data were processed

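Per the labels and the matrix header, the authors processed the 10x reads with Cell Ranger 3.0.2 on mm10 and worked in R 4.0.2 with Seurat 4.0.0. The deposited values are whole-number UMI counts per gene and cell. Here, cells with at least 500 genes and at most 10% mitochondrial UMIs were kept (21568 of 22939), and the 721 cells of highest Scrublet score (scanpy) were removed as doublets, at 0.8% per 1000 cells. Seurat integrated the libraries and clustered them at resolution 0.5 with the 10 factors, the listed genes, and immunoglobulin, mitochondrial and ribosomal genes left out. A cluster took the name of the marker list with the highest mean score among B cell or other lists, as its Cd79a level directed, if the score was above 0, at least 3 markers were detected and no other list had more markers among its 10 genes of largest fold. When this rule left the unintegrated clustering without CC-like or recycling-like cells, a rule that counts leading markers first was added after that was seen. It changed 0 of 17 names in the main clustering and 2 of 14 in the unintegrated one, and 1 each at a resolution of 1 and with a looser cell filter. The alternatives that use the added rule were chosen after seeing the data.

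UMIs were summed per class and library. Genotypes were compared by edgeR's quasi-likelihood test (TMM factors, filterByExpr, Benjamini-Hochberg), tested on simulated data. Same-numbered libraries deviated together in the 4 GC classes (each of the 3 correlations from 0.114 to 0.355). Differently numbered libraries were not correlated, and both replicate 1 libraries had the lowest median depths. The labels do not say what a number shares, so these correlations cannot tell whether the numbers pair the samples. The main test was unpaired, and a replicate block was run as an alternative. The members, gene lists and class comparisons were chosen with earlier results of these data known. The genes named are the 10 members, those of the listed pathways with the highest level or the largest and smallest difference, and the 3 genes most like each member. The split of CC-like cells by Myc was chosen after seeing the data. Intervals cover counting or library spread only.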

Additional observations from a re-analysis of the deposited data

How the results depend on the processing

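No member was called in any of its 1005 tests under an alternative. Genes called between genotypes, 0 in each class, became 19 in CC-like, 25 in naive or memory B-like, 7 in plasma-lineage, 9 in T cell-like and 1 in S-phase GC B-like cells with no low-count filter, and 1 in S-phase GC B-like cells with DESeq2 (Ifi27). Without integration 1 was called in CB-like (Tmem121) and 1 in S-phase GC B-like cells (Ifi27), also under the added naming rule. Leaving out 1 library gave 0 to 1 calls in plasma-lineage, CB-like, recycling-like and S-phase GC B-like cells, each 1 without Smc3 wt/- replicate 2 (Ighg2c, Tmem121, Tmem121 and Iglc2). These genes were named after their values were seen.

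Fos was lower in Smc3 wt/- in all 19 alternatives run in CB-like cells, in naive or memory B-like cells and in S-phase GC B-like cells, and in all 17 run in recycling-like cells. Leaving out 1 library moved its log2 fold change between -1.26 and -0.33 in recycling-like and between -0.61 and -0.34 in CB-like cells. With the looser cell filter under the added naming rule it was -0.091 in CB-like cells, the smallest of the 19 there. With the replicate block it was -0.49 in CB-like and -1.04 in S-phase GC B-like cells (edgeR adjusted p = 0.915 in the latter), and the block changed no call.

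In CC-like cells several fold changes between genotypes, none of them called, turned sign, and the cause was not tested. Batf turned to -0.0149 without Smc3 wt/- replicate 2, -0.0038 with the looser cell filter under both naming rules, -0.0386 with doublets kept and -0.204 without integration under the added rule. Fosb turned to 0.0807 with DESeq2, 0.175 with the replicate block and 0.213 with sex as a covariate. Over libraries left out, Batf ranged from -0.0149 to 0.169, Fos from -0.444 to 0.0069, Fosb from -0.272 to 0.252, Jun from -0.253 to 1.5, Junb from -0.537 to 0.19, Jund from -0.782 to 0.213 and Egr2 from -0.0061 to 0.848. Jun turned to -0.253 without Smc3 wt/- replicate 2.

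The CC-like minus CB-like difference turned to 0.0294 for Fosb with doublets kept and to 0.113 for Jun at a resolution of 1 (0.0267 under the added rule). The median over the members, 0.87, ranged from 0.76 to 0.997 over libraries left out and was 0.62 without integration under the added rule. Of the 7 classes, T cell-like cells were the highest for 6 members. This number was 5 with immunoglobulin genes left out, at a resolution of 1 and without integration under the added rule, and 4 without Smc3 wt/- replicate 1. The number found in a larger share of CC-like than CB-like cells in every library was 5 at 2000 UMIs and without thinning, and 4 at 1000 UMIs. Without integration no value for CC-like cells could be had under the first rule. In T cell-like and PC-like cells few UMIs limit Egr2, Egr3 and Nr4a1.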
